A study of Mus musculus with 39 samples.

Results

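Glucose enters a cell through facilitative transporters, is phosphorylated and split by the enzymes of glycolysis, and leaves as pyruvate for the mitochondria or as lactate for export. Skeletal muscle also stores glucose as glycogen. The 36 genes described here encode that route: glucose transporters, glycolytic enzymes, the bifunctional enzymes that set fructose-2,6-bisphosphate, lactate dehydrogenases and lactate transporters, the enzymes that make and break glycogen, muscle fructose bisphosphatase, and the entry of pyruvate into the mitochondrion with its kinases. They were taken by symbol from a given list, and all 36 were found among the 55011 gene symbols of the count table. Of these, 9 were treated as muscle isoforms (Slc2a4, Pfkm, Aldoa, Pgam2, Eno3, Pygm, Phka1, Phkg1 and Fbp2) and 7 as general isoforms (Slc2a1, Pfkl, Pfkp, Aldoc, Pgam1, Eno1 and Pygl).

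The 39 mouse libraries of polyadenylated RNA fell into 14 groups. γδ T cells bearing the Vγ6 receptor (Vg6) were sorted, 1000 to a library, from the colon of untreated wild-type mice (Vg6.C-LP, n = 3) and from wild-type hindlimb muscle 3 days after cardiotoxin (Vg6.Muscle-d3, n = 3), a venom toxin that destroys muscle fibres and sets off regeneration. Whole tibialis anterior muscle (2 ng of RNA a library) was taken at days 1, 3, 7 and 14 after cardiotoxin from wild-type (WT) and Tcrd-DTR (DTR) mice. Both genotypes had received intraperitoneal diphtheria toxin, which removes γδ T cells where the receptor transgene is carried. Each of these groups had n = 3, except DTR at day 7 (n = 2). A separate set of wild-type muscle at day 7 came from mice given PBS (n = 2) or recombinant IL-17A (rIL-17A, n = 2) into the peritoneum and the muscle. Satellite cells, the muscle stem cells (MuSC), were sorted 1000 to a library at day 1 after cardiotoxin from diphtheria toxin-treated WT (n = 3) and DTR (n = 3) mice. The labels call the libraries independent biological replicates without naming the animals, so the p-values measure the spread between these libraries.

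Skeletal muscle fibres depend on glycolysis for bursts of contraction and carry muscle-enriched isoforms of several of its enzymes. Aldoa, grouped here with the muscle isoforms, is also the aldolase of many other cell types. The muscle glycogen phosphorylase Pygm, switched on by phosphorylase kinase, releases glucose phosphate from glycogen during contraction. The lactate exporter Slc16a3 (MCT4) is typical of fast glycolytic fibres and of activated immune cells, and Pdk1 and Pdk2 phosphorylate and inhibit the pyruvate dehydrogenase subunit Pdha1.

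The DNA just before the start sites is shown for 4 genes. The windows below are the 250 bases before the start in RefSeq (GRCm38.p6), for 3 muscle isoforms and for Pgam1, the general counterpart of Pgam2. They were picked after all windows had been scanned, Pgam2 and Phkg1 for holding the most CANNTG, and none of the 4 overlaps an exon annotated in GENCODE. Capitals mark each CANNTG, the core of the E-box, which reads the same on both strands.
Pgam2 (chr11:5803797-5804046, minus strand): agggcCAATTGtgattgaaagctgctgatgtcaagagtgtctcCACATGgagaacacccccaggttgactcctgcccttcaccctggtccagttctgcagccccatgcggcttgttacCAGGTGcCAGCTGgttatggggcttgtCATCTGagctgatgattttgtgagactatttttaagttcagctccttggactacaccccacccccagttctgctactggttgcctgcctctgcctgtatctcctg
Phkg1 (chr5:129879089-129879338, minus strand): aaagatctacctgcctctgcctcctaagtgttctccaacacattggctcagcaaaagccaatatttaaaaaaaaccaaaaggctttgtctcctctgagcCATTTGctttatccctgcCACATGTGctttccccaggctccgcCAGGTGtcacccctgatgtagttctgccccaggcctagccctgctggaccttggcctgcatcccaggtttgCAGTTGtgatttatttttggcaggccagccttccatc
Eno3 (chr11:70656926-70657175, plus strand): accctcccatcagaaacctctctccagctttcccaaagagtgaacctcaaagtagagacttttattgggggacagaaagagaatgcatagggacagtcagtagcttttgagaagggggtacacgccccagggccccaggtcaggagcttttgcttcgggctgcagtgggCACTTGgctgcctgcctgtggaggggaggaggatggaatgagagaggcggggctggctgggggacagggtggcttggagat
Pgam1 (chr19:41911621-41911870, plus strand): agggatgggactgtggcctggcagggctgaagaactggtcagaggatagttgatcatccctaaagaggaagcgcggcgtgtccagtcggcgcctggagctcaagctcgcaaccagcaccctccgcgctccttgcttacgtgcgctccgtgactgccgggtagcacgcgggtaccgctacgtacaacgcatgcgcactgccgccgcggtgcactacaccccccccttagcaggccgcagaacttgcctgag
The Pgam2 and Phkg1 windows held 5 CANNTG each, and the Pgam1 window held 0. The Pgam1 window held 22 CG dinucleotides against 1 in Pgam2, 1 in Phkg1 and 3 in Eno3. Among all 32851 RefSeq promoter windows of this length 66.2% held at least 1 CANNTG, 1.15% held 5 or more, and the median number of CG was 6. RefSeq listed a promoter for 35 of the 36 genes (Slc2a4 is named only), several with more than 1 start. CANNTG stood in 12 of the 13 windows of muscle isoforms and in 2 of the 10 windows of general isoforms, which include overlapping windows of the same gene. Their median CG counts were 4 and 14.5. The contrast did not hold throughout: the Pfkl window (general) held 3 CANNTG, and 1 Eno1 window held 2 against 1 in Eno3. A match describes these letters and is not a binding site.

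The libraries held 2372139 to 10974862 counts. Levels are given as CPM, counts scaled to the library's total. Fold and log2 changes come from the fits, which scale libraries differently (TMM), so they can differ from the ratios of the CPM beside them. The 6 genes of the γδ receptor list summed to 4101 CPM or more in the Vg6 libraries. In whole muscle the same list was near 0 and separated the genotypes at day 3 (4.15, 4.32 and 5.31 CPM in WT against 1.10, 1.10 and 0 CPM in DTR) but not at day 1 (0.902, 1.22 and 0.697 CPM against 1.09, 1.85 and 1.14 CPM). At day 7 the sums were 0.427, 0.215 and 2.64 CPM in WT against 0 and 0.182 CPM in DTR. At day 14 they were 2.25, 1.91 and 2.73 CPM against 1.40, 0.422 and 0.41 CPM. The 7 satellite cell markers summed to 4172 CPM or more in the MuSC libraries, beside 5071 to 9088 CPM of 6 fibroblast markers, whose part in the results on those cells was not tested. Fibre markers, 15 genes such as Ckm and Myh4, summed to 6.27 to 21.2 CPM in the Vg6 libraries. They summed to 78.2 to 122 CPM in 5 of the 6 MuSC libraries and to 4430 CPM in MuSC.D1.DTR replicate 1. In whole muscle the same sum was lowest in D3.WT replicate 1, at 28805 CPM against 60578 and 95221 CPM in the other 2 libraries of that group. D1.DTR replicate 2, with 95043 CPM against 154208 and 162421, and D7.WT replicate 3, with 34392 genes detected against 22417 and 27437, also stood apart. Results are therefore also given without these libraries where that matters.

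The 36 genes together took a larger share of counts in whole muscle than in sorted cells. Their sum was 5451 to 6007 CPM in colon Vg6 cells and 5635 to 5812 CPM in muscle Vg6 cells. It was 8577 to 11437 CPM in satellite cells. In WT muscle the sum was 51704 to 66214 CPM at day 1, 17607 to 37633 CPM at day 3, 64226 to 68328 CPM at day 7 and 73062 to 79588 CPM at day 14, so the day 3 libraries lay below all the others. The heat map of the 36 genes shows the split between whole muscle and sorted cells.

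**Figure D1:**
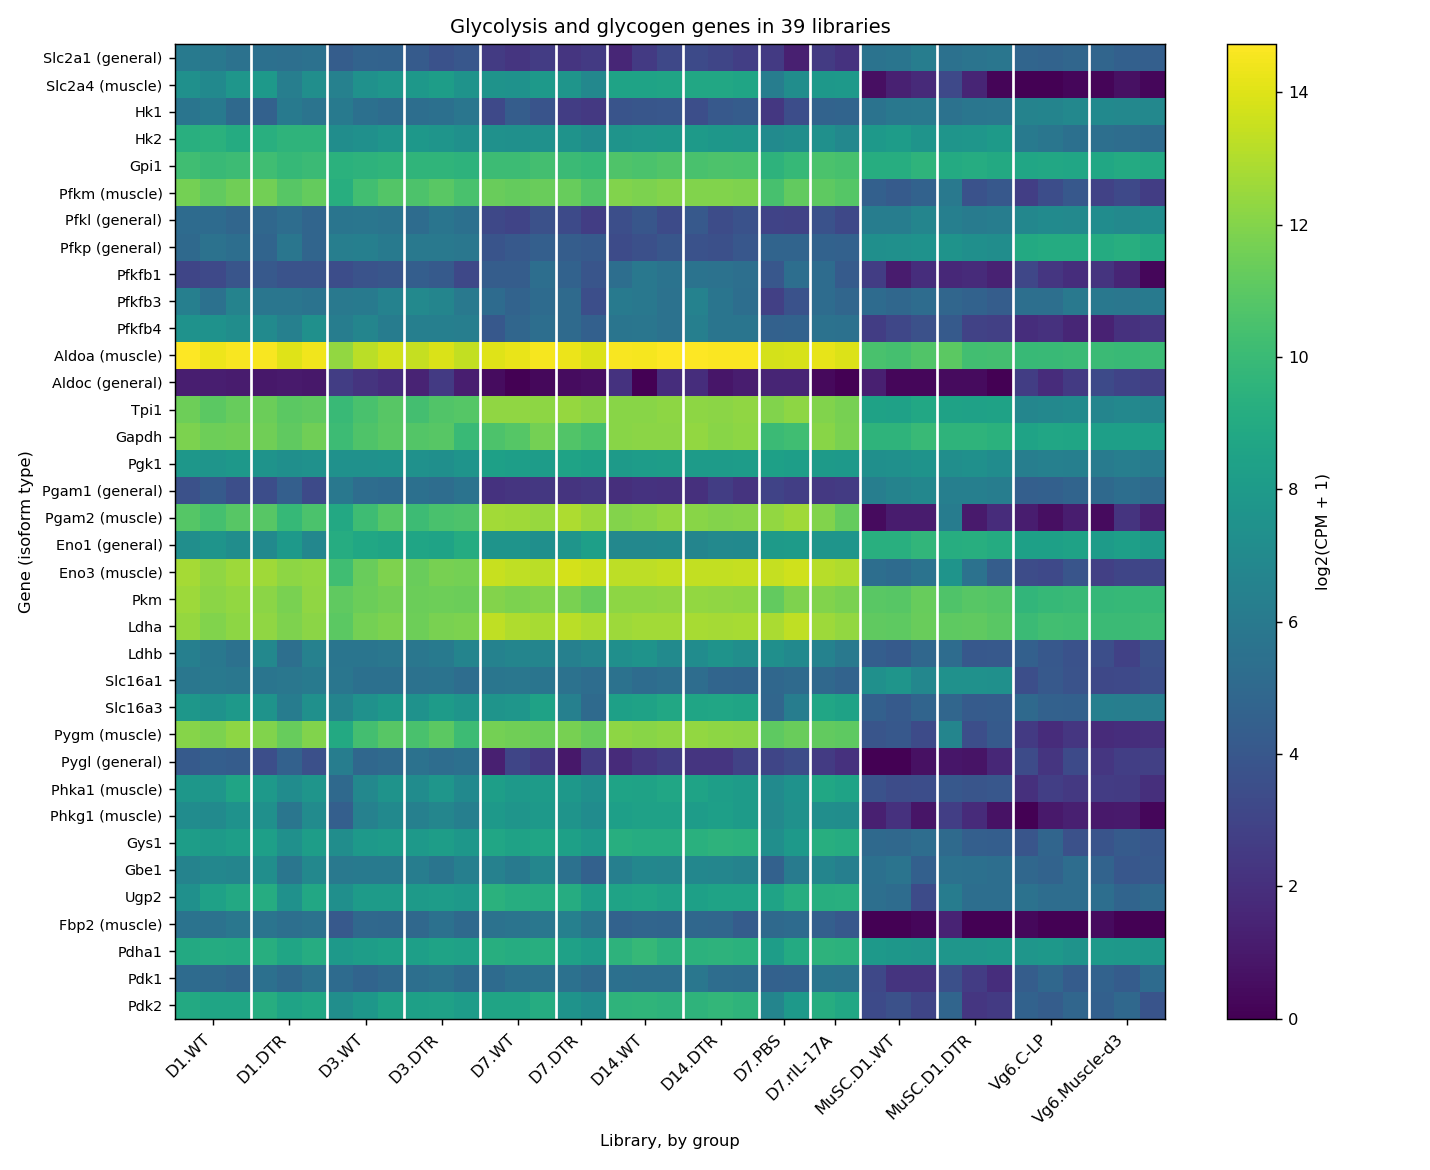
Level of each of the 36 genes (rows, with isoform type) in each of the 39 libraries (columns, by group), as log2(CPM + 1). Muscle isoforms such as Pgam2, Eno3 and Pygm are high in whole muscle and low in sorted cells, and Aldoa reaches 25143 CPM on average in WT muscle at day 14.

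The shares of the enolase isoforms differed between days and between whole muscle and sorted cells. In bulk muscle a changed mix of cells and a change within cells cannot be told apart. Of the counts of Eno1 and Eno3 per transcript length, Eno3 (the muscle enolase) made up 97.0% to 98.3% in WT muscle at day 1, 73.3% to 92.8% at day 3, 98.6% to 98.8% at day 7 and 99.07% to 99.09% at day 14. The day 3 libraries lay below all others of WT muscle. In muscle Vg6 cells the Eno3 share was 2.78% to 3.60%, and in WT satellite cells 6.74% to 7.36%. The share counts reads as deposited, and 72.2% of the 50-base windows of Eno1 (the general enolase) also lie in other genes' transcripts, and how reads with several matches were counted is not given in the sources used here. Dividing the same Eno1 counts by the length of its unshared windows alone put the mean day 3 share at 63.3% in place of 84.8%. The rise from day 3 to day 14 was then 33.5 percentage points in place of 14.2. That scale assumes that no read from the shared windows was counted, which is not known.

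Shares cover only the isoforms named (Pgam2 with Pgam1, Pfkm with Pfkl and Pfkp, Pygm with Pygl, Slc2a4 with Slc2a1), so the brain phosphorylase Pygb, for one, is not in them. Pgam2, the muscle phosphoglycerate mutase, averaged 97.4% at day 3 and 99.97% at day 14 in WT muscle. Pfkm, the muscle phosphofructokinase, averaged 93.9% at day 3 and 99.7% at day 14, and Pygm 94.8% and 99.9%. D3.WT replicate 1 had the lowest share in each of these sets, and without it the rise from day 3 to day 14 was 8.47 points for Eno3, 1.16 for Pgam2, 3.92 for Pfkm and 1.70 for Pygm, against 14.2, 2.59, 5.81 and 5.12 with all libraries. Slc2a4 (GLUT4), the insulin-responsive transporter, differed, with its lowest mean share in WT muscle at day 1 (74.5%, range 68.5% to 82.6%), a higher one at day 3 (86.7%) and 98.7% at day 14. Slc2a1 (GLUT1), the general transporter, stood at 64.3, 59.8 and 46.7 CPM in the WT day 1 libraries and at 2.00, 4.63 and 8.20 CPM at day 14.

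In WT satellite cells the mean share of Eno3, Pgam2, Pfkm and Slc2a4 was 14.8% or less, while Pygm outweighed Pygl and Aldoa (1313 to 1717 CPM) outweighed Aldoc (0.191 to 1.46 CPM). Pygm made up 94.4% or more of Pygm and Pygl together in each WT satellite library, at 9.16 to 15.9 CPM, with Pygl (the liver form) at 0, 0 and 0.598 CPM. MuSC.D1.DTR replicate 1, the library with 4430 CPM of fibre markers, held 72.7 CPM of Pgam2 and 196 CPM of Eno3, against 1.09 and 2.66 CPM and 46.1 and 19.4 CPM in the other 2 DTR libraries. Its Pgam2 share was 65.1%, the highest of the sorted cells, and the part of fibre RNA in it was not tested. In Vg6 cells Pygm made up 34.0% to 42.8% of the pair in colon and 35.4% to 39.7% in muscle, on 2.45 to 4.61 CPM.

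**Figure D2:**
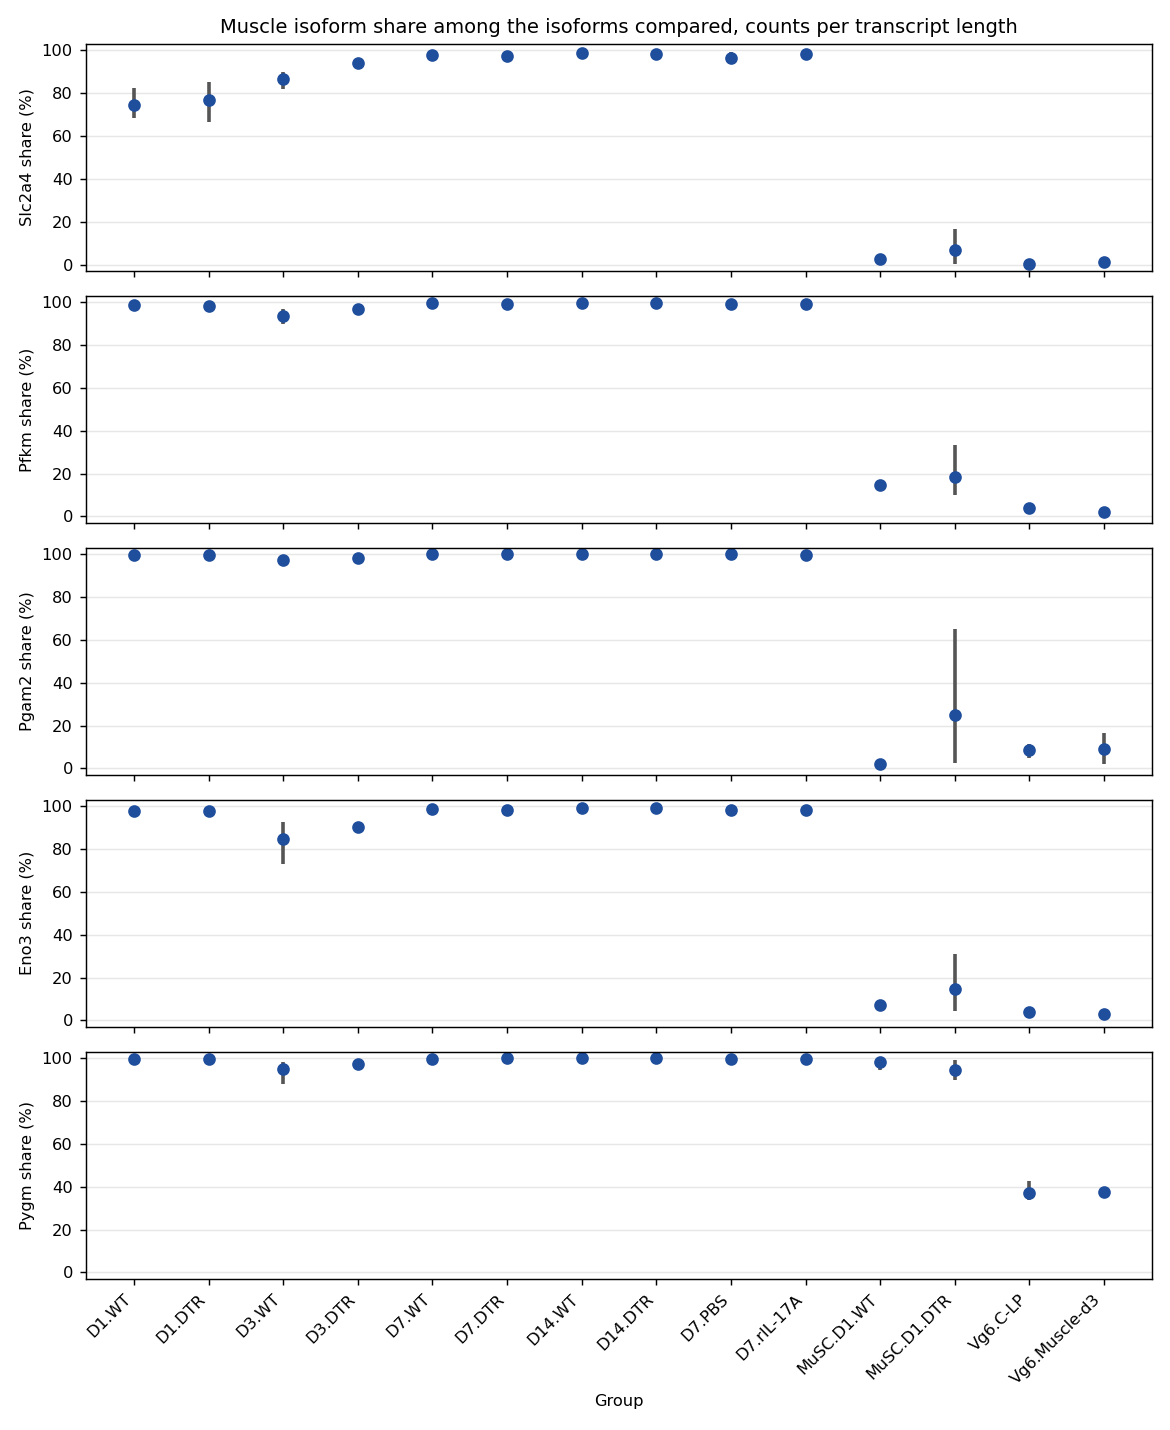
Share of each muscle isoform among the isoforms compared (percent of counts per transcript length) in the 14 groups; dots are group means and bars span the lowest to the highest library. Whole muscle lies near the top at days 7 and 14 and dips at day 3 for enolase (84.8% on average in WT). The sorted cells lie below whole muscle for Eno3, Pgam2, Pfkm and Slc2a4, with 1 DTR satellite library at 65.1% for Pgam2, while Pygm lies at 37.2% and 37.3% on average in the Vg6 groups and high in satellite cells.

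Over the 4 days of regeneration 35 of the 36 genes changed in WT muscle and 34 in DTR muscle (edgeR quasi-likelihood F-test over 3 coefficients, Benjamini-Hochberg adjusted p under 0.05), where 53.7% and 56.2% of the 18264 genes tested did. Pfkfb3, an activator of phosphofructokinase, passed in neither genotype, and Aldoc (aldolase C) not in DTR. By mean CPM, 14 genes were highest at day 14 in WT, 8 at day 7, 6 at day 3 and 8 at day 1. For 33 of the 36 the day of the highest mean was the same in both genotypes. In bulk muscle, fewer cells of a type and less RNA per cell cannot be told apart.

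From day 1 to day 3, 6 of the 9 muscle isoforms fell in WT muscle and 4 of the 9 in DTR, and Pgam2, Phkg1 and Slc2a4 did not pass in WT. In WT muscle 20 genes fell and 2 rose, where 18.9% of all genes changed (9.58% up and 9.36% down), and the median log2 change of the 36 was -0.95 against -0.0003 over all genes. In DTR muscle 14 fell and 3 rose, where 14.3% of all genes changed (8.48% up and 5.85% down). Scaling by library size alone gave 16 falls and 5 rises in WT, and 9 and 4 in DTR. The fibre marker list fell with them, 13 of 15 in WT, and the 10 macrophage markers summed to 1246 to 2819 CPM at day 1 and 10215 to 16925 CPM at day 3, and their part in these results was not tested. Of the DTR calls, 16 were also called the same way in WT (94.1% of the DTR list, 72.7% of the WT list). The DTR count was 8 without D1.DTR replicate 1, 8 without D1.DTR replicate 3, 9 without D3.DTR replicate 1 and 10 without D3.DTR replicate 3. Without the 3 libraries that stand apart it was 27.

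Hexokinase II opened the series at its highest. Hk2 (chromosome 6, 82725025 to 82774454, minus strand, GRCm38), which traps glucose in muscle by phosphorylation, read 616, 683 and 525 CPM in WT at day 1, 148, 168 and 201 CPM at day 3, 177, 166 and 173 CPM at day 7 and 197, 213 and 225 CPM at day 14. All day 1 libraries lay above all later ones. The fall from day 1 to day 3 was 2.21 ± 0.21 (log2 fold change ± SE), 4.61-fold, with an adjusted p of 5.24e-10 in edgeR. In DTR muscle Hk2 read 624, 755 and 770 CPM at day 1 and 232, 205 and 165 CPM at day 3, a fall of 2.08 ± 0.21 (edgeR adjusted p = 1.8e-09). Both calls stood in every alternative tried. Set against the fibre markers, Hk2 was 3.71 ± 0.91 CPM per 1000 CPM of their sum at day 1, 3.34 ± 1.59 at day 3 and 0.828 ± 0.044 at day 7 in WT (SD, n = 3), so on this scale the step lay between days 3 and 7.

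Slc2a1 fell beside it, by 1.73 ± 0.29 in WT (edgeR adjusted p = 2.45e-05) and 1.75 ± 0.29 in DTR. Pfkfb4, a second bifunctional enzyme of fructose-2,6-bisphosphate, read 184, 179 and 149 CPM in WT at day 1 and 75.7, 105 and 72.1 CPM at day 3, with no overlap. It fell by 1.42 ± 0.27 in WT (edgeR adjusted p = 0.000233). Pkm, the pyruvate kinase of muscle and of most other tissues, read 6008, 4673 and 5106 CPM and then 2255, 2722 and 3078 CPM, and fell by 1.37 ± 0.25 (edgeR adjusted p = 0.000107). Pfkm, the committing step of glycolysis in muscle, fell by 1.62 ± 0.30 (edgeR adjusted p = 0.000148). The monocarboxylate transporter Slc16a1 fell by 0.72 ± 0.20 (edgeR adjusted p = 0.0106). Its call was lost with library size alone, with no filter and without D3.WT replicate 2. Of the 48 other genes of these pathways 42 were tested over this step in WT, and 2 rose and 16 fell.

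In enolase both isoforms changed, in opposite directions. Eno1 read 157, 195 and 147 CPM in WT at day 1 and 563, 437 and 384 CPM at day 3, while Eno3 read 6985, 4936 and 6048 CPM and then 1191, 2579 and 3805 CPM. The groups did not overlap for either gene. Eno1 rose 2.11-fold (log2 1.08 ± 0.21, edgeR adjusted p = 0.000294) and Eno3 fell by 1.63 ± 0.31 (adjusted p = 0.000162). Pgam1 read 11.5, 16.7 and 10.8 CPM at day 1 and 59.1, 37.7 and 33.8 CPM at day 3, and rose 2.56-fold (log2 1.35 ± 0.28, edgeR adjusted p = 0.000565). Its muscle counterpart Pgam2 read 1806, 1317 and 1922 CPM and then 481, 1152 and 1838 CPM, with overlap, and did not pass (log2 -0.92 ± 0.36, adjusted p = 0.0715). Pgam1 and Eno1 also rose in DTR, by 1.51 ± 0.29 and 1.28 ± 0.22. Reads of Eno1, Pgam1 and Pgk1 can be split with near-identical copies, which makes their levels uncertain.

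Aldolase A, the aldolase of muscle and the most abundant of the 36, read 26926, 20962 and 24444 CPM in WT at day 1, 5181, 9403 and 13522 CPM at day 3, 16672, 19001 and 23157 CPM at day 7 and 24276, 24032 and 27121 CPM at day 14. Day 3 lay below every other day. Aldoa fell by 1.75 ± 0.31 to day 3 (edgeR adjusted p = 6.99e-05) and rose by 1.83 ± 0.31 to day 7 (adjusted p = 1.07e-05).

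Of the 7 glycogen genes, 4 fell in WT. Pygm read 4328, 3621 and 4773 CPM at day 1 and 501, 1294 and 1917 CPM at day 3, and fell by 2.16 ± 0.35 (edgeR adjusted p = 3.12e-05). Its kinase subunit Phka1 and the branching enzyme Gbe1 fell by 1.67 ± 0.47 and 1.11 ± 0.33, and glycogen synthase Gys1 by 0.78 ± 0.26, with day 1 and day 3 libraries that overlapped for Gys1. The Phka1 call was lost without D1.WT replicate 3 (and without D3.WT replicate 2), the Gbe1 call without D1.WT replicate 1, D3.WT replicate 1 or D3.WT replicate 2, and the Gys1 call without any of those 4. Pygl, the liver phosphorylase, had 17.4, 20.3 and 18.3 CPM at day 1 and 75.2, 29.0 and 33.3 CPM at day 3 (log2 0.91 ± 0.41, edgeR adjusted p = 0.132). Phkg1 (-1.35 ± 0.50, adjusted p = 0.07) and Ugp2 (-0.86 ± 0.42, adjusted p = 0.179) did not pass either.

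**Figure D3:**
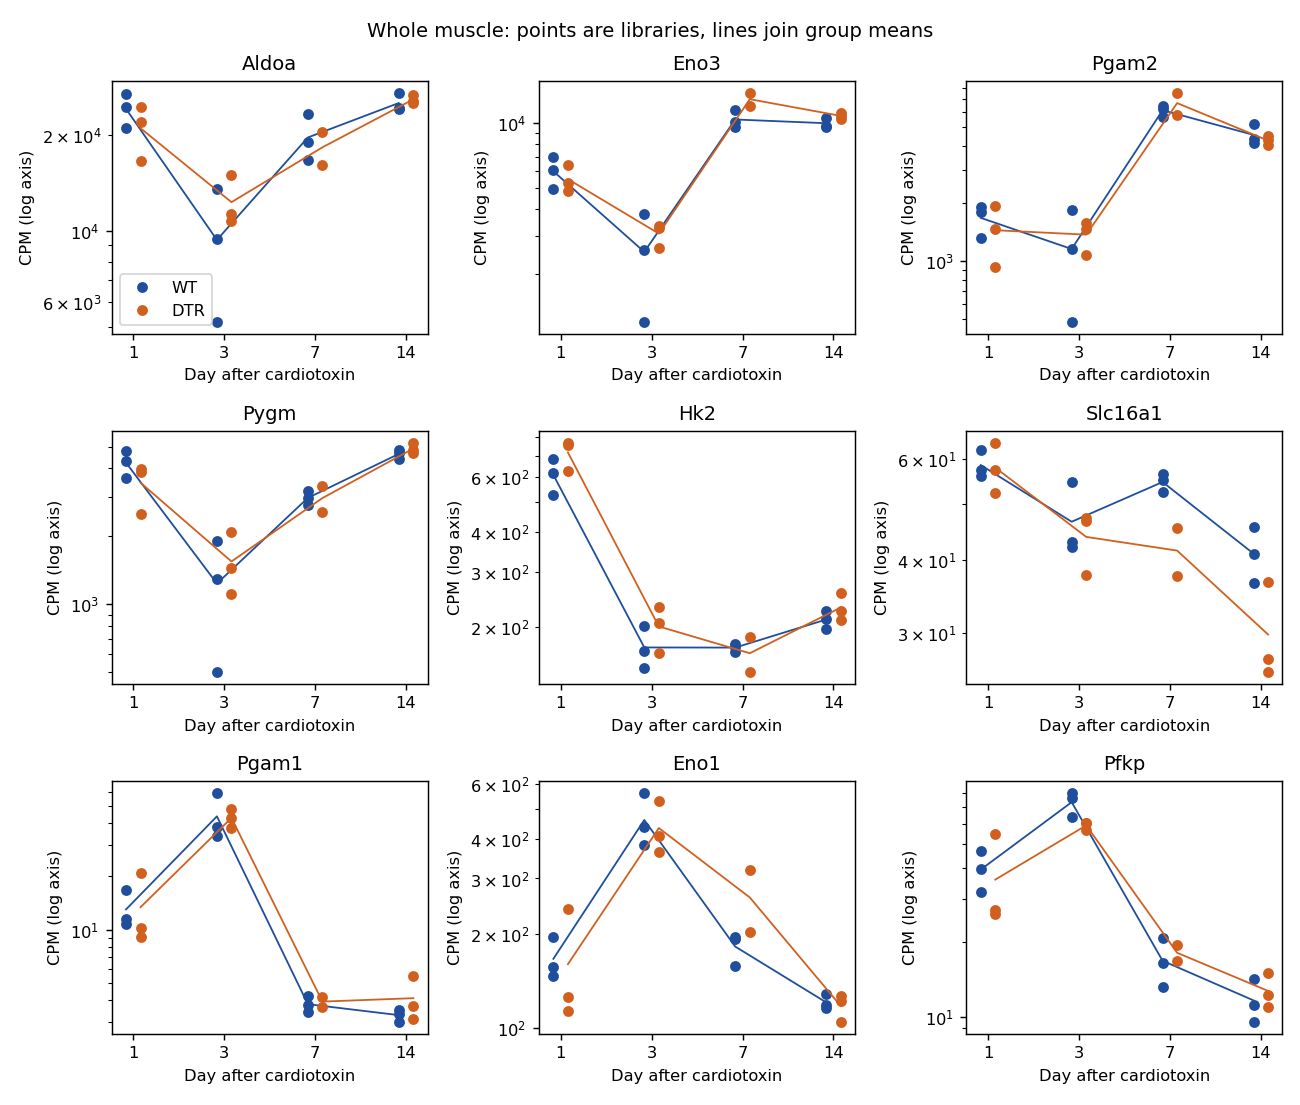
CPM (log axis) of 9 genes in whole muscle at days 1, 3, 7 and 14 after cardiotoxin, with WT in blue and DTR in orange; points are libraries and lines join group means. Aldoa, Eno3 and Pygm dip at day 3, Hk2 is highest at day 1, and Pgam1, Eno1 and Pfkp peak at day 3 in both genotypes.

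Day 3 to day 7 carried the largest number of changes. In WT muscle 26 genes rose and 9 fell, where 36.9% of all genes changed (17.9% up and 19.0% down), and the median log2 change was 1.39 against 0.04 over all genes. All 9 muscle isoforms rose and all 7 general isoforms fell. Of these, Aldoc was near the floor, at 5.38, 3.60 and 2.79 CPM at day 3 and 0.427, 0 and 0.264 CPM at day 7. Its call was lost without the 3 libraries that stand apart. In DTR muscle 21 rose and 5 fell, where 35.5% of all genes changed (17.1% up and 18.4% down), among them 7 of the 9 muscle isoforms up and 4 of the 7 general isoforms down, and all 26 were called the same way in WT. All 15 fibre markers rose and all 10 macrophage markers fell in WT over the same days. The 36 log2 changes, from genes that are no replicates of each other, ran against transcript length (Spearman -0.48 in WT and -0.55 in DTR, against -0.07 and -0.15 over 17949 genes). With the offset for length and GC content the calls were 26 up and 6 down in WT and 21 up and 4 down in DTR, with Eno1, Hk1 and Pfkfb4 losing theirs in WT.

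These directions depend in part on the scaling between days. The fold changes use TMM scaling and the CPM do not, so over this step the folds differ from the ratios of the CPM beside them. Scaling by library size alone put the median log2 change of all genes at -0.74 in WT, where it was 0.04, and at -1.20 in DTR, where it was -0.22, and the calls became 19 up and 10 down in WT and 7 up and 12 down in DTR. Hk2 in WT, and Hk2, Gapdh, Slc16a1, Pdha1 and Pdk1 in DTR, changed sign under it. Slc2a4 in WT lost its call under it, at a log2 change of 0.38, and also without D3.WT replicate 1, D3.WT replicate 2, D7.WT replicate 1 or D7.WT replicate 3. Pgam2, Eno3, Pygm and Fbp2 kept theirs in both genotypes under every alternative tried. Without D7.DTR replicate 1 the DTR count was 17.

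Pgam2 moved most among the muscle isoforms in both genotypes. It read 481, 1152 and 1838 CPM in WT at day 3 and 6463, 6239 and 5664 CPM at day 7, with no overlap, and rose 9.11-fold (log2 3.19 ± 0.39, edgeR adjusted p = 1.47e-07). In DTR it read 1073, 1465 and 1585 CPM and then 7573 and 5764 CPM, and rose 9.72-fold (log2 3.28 ± 0.41, adjusted p = 3.01e-07). Per 1000 CPM of fibre markers Pgam2 ranged from 9.11 to 10.9 at day 1 and was 18.3 ± 1.4 at day 3, 29.4 ± 0.6 at day 7 and 19.1 ± 2.0 at day 14 in WT (SD, n = 3), so it was high at day 7 also against the other fibre RNAs. Pygm on the same scale was lowest at day 7, at 14.2 ± 0.4 against 25.4 ± 1.5 at day 1.

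Lactate dehydrogenase A, which turns pyruvate into lactate, read 2058, 3236 and 3668 CPM in WT at day 3 and 10178, 8062 and 7013 CPM at day 7, and rose 4.94-fold (log2 2.30 ± 0.28, edgeR adjusted p = 3.08e-08). Ldhb, the heart form of the enzyme, read 51.2, 52.0 and 55.6 CPM and then 90.2, 103.3 and 102.6 CPM, and rose 3.22-fold (edgeR adjusted p = 0.00031). Phosphoglycerate kinase Pgk1 rose 2.96-fold and pyruvate kinase Pkm 2.52-fold. Pfkfb1, a bifunctional enzyme of fructose-2,6-bisphosphate, read 10.2, 12.5 and 14.5 CPM and then 19.1, 19.5 and 39.5 CPM, and rose 3.56-fold (edgeR adjusted p = 1.61e-05). Ugp2, which makes the UDP-glucose that glycogen synthase uses, read 158, 271 and 273 CPM and then 667, 569 and 553 CPM, and rose 4.45-fold (edgeR adjusted p = 0.000541). Phkg1, the catalytic subunit of phosphorylase kinase in muscle, read 21.2, 86.3 and 126 CPM and then 247, 202 and 240 CPM, and rose 5.10-fold (edgeR adjusted p = 0.00137). The later libraries lay above all the earlier ones for each of these 4 genes. Triose phosphate isomerase Tpi1 rose 5.82-fold and Fbp2, the muscle fructose bisphosphatase, 3.54-fold. Among general isoforms Pgam1 read 3.41, 3.76 and 4.23 CPM at day 7 and fell by 2.73 ± 0.31 (adjusted p = 4.62e-09), and Pygl fell by 2.55 ± 0.44. The platelet and liver phosphofructokinases Pfkp and Pfkl fell by 1.35 ± 0.23 and 1.78 ± 0.26 in WT. The Eno1 fall in WT (0.53 ± 0.21, adjusted p = 0.046) was lost without D3.WT replicate 1 or D7.WT replicate 3 and without the 3 libraries together.

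Pdha1, Pdk1 and Pdk2, the 3 genes of pyruvate entry, rose in WT. Pdha1 read 242, 290 and 325 CPM at day 3 and 593, 559 and 602 CPM at day 7, with no overlap, and rose 3.54-fold (edgeR adjusted p = 5.58e-08). Of the 48 other genes of these pathways, 42 were tested and 22 rose and 7 fell in WT. The 4 with the smallest p were Pdhb and Dlat, subunits of pyruvate dehydrogenase, at log2 2.57 and 2.17, Mpc2, of the mitochondrial pyruvate carrier, at 2.19, and Dld, the shared dehydrogenase subunit, at 2.09.

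From day 7 to day 14 few genes changed in WT: 3 rose and 2 fell, where 17.3% of all genes changed (4.14% up and 13.2% down). Gapdh read 1560, 1848 and 3183 CPM at day 7 and 4345, 4544 and 4684 CPM at day 14, and rose 1.94-fold (edgeR adjusted p = 0.0114), a call lost without D7.WT replicate 1 or D7.WT replicate 2. Fbp2 read 46.8, 50.1 and 56.3 CPM and then 24.0, 26.98 and 26.1 CPM, and fell by 1.11 ± 0.26 (edgeR adjusted p = 0.00198). The Fbp2 call was lost with the offset for length and GC content. Pfkfb4 and Aldoc also rose and Eno1 also fell, Aldoc from 0.427, 0 and 0.264 CPM to 3.50, 0 and 2.73 CPM, with a library at 0 on each day. These 3 calls were unsteady: of 13 alternatives, Eno1 lost its call in 8 (DESeq2 among them), Pfkfb4 in 6 and Aldoc in 6. The count was 2 without D7.WT replicate 1, 1 without D7.WT replicate 2, 8 without D7.WT replicate 3, 3 without any 1 of the day 14 libraries, and 11 without the 3 libraries that stand apart. DESeq2's size factors gave 5 rises and 1 fall, and library size alone 6 and 1.

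In DTR muscle 7 rose and 6 fell over the same step, where 34.4% of all genes changed (14.6% up and 19.7% down), and 3 were called the same way in WT (60.0% of the WT list, 23.1% of the DTR list). Library size alone gave 17 and 2, and DESeq2's size factors 10 and 4. Slc16a3 read 83.1 and 33.1 CPM at day 7 and 409, 422 and 383 CPM at day 14, and rose 5.18-fold (log2 2.37 ± 0.50, edgeR adjusted p = 0.00154). Pdk2 read 190 and 141 CPM and then 751, 860 and 755 CPM, and rose 3.62-fold (adjusted p = 1.6e-05). Both stood in every alternative tried. Without D7.DTR replicate 2 the count was 7.

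The design then asks whether depletion of γδ T cells altered these levels. At days 1, 3 and 14 none of the 36 genes passed between DTR and WT, where 0%, 0% and 0.0767% of all genes did in edgeR. DESeq2 also called none of the 36 at those days, and at an unadjusted p under 0.05 there was 1 gene at each day (Pgk1 lower at day 1, Fbp2 higher at day 3, Slc16a1 lower at day 14), where 4.25%, 4.78% and 5.72% of all genes had one. The median log2 difference of the 36 was -0.25 at day 1, 0.22 at day 3 and 0.03 at day 14. No gene passed the test of genotype by time in edgeR, where 0.608% of all genes did, 7 had an unadjusted p under 0.05 (13.5% of all genes), and DESeq2 called 1. The count was 1 without D1.DTR replicate 2 and 1 without D3.WT replicate 3.

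At day 7, 1 gene passed, where 2.01% of all genes did (1.37% lower). Pdk2 (chromosome 11, 95026258 to 95041354, minus strand, GRCm38) encodes a kinase that inhibits pyruvate dehydrogenase. It read 381, 384 and 548 CPM in WT and 190 and 141 CPM in DTR, without overlap. It was 2.20-fold lower in DTR (log2 -1.14 ± 0.29, edgeR adjusted p = 0.0312). The call was lost without D7.WT replicate 3 (-1.05, adjusted p = 0.113), without D7.DTR replicate 2 (-0.84, adjusted p = 0.353) and in 1 fit with all 27 whole-muscle libraries (adjusted p = 0.0704). Over its alternatives the adjusted p ran from 7.99e-05 to 0.353. The count of genes was 5 with DESeq2 and 5 with library size alone, and 2 without D7.WT replicate 1 and 2 without D7.DTR replicate 1. The interaction of Pdk2 with time did not pass (edgeR adjusted p = 0.134). D7.DTR replicate 2 also differed from replicate 1 in its markers. Macrophage markers summed to 2009 CPM in it, 507 CPM in replicate 1 and 558, 828 and 932 CPM in WT. In the same order, oxidative fibre markers summed to 1667, 722 and 806, 832 and 603 CPM. Fibroblast markers summed to 4591, 1861 and 2325, 3536 and 2676 CPM, and fibre markers to 209799, 225196 and 217175, 210058 and 197615 CPM. The part of these cell types was not tested.

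Slc16a3 (chromosome 11, 120948480 to 120960868, plus strand, GRCm38) had the next smallest p of the 36 at day 7. It read 198, 215 and 359 CPM in WT and 83.1 and 33.1 CPM in DTR, so all DTR libraries lay below all WT libraries, but it did not pass (log2 -1.84 ± 0.49, edgeR adjusted p = 0.0577). Hk1, the general hexokinase, read 8.68, 19.0 and 13.2 CPM in WT and 5.34 and 4.37 CPM in DTR (log2 -1.25 ± 0.37, adjusted p = 0.0607). Eno1 stood at 196, 193 and 157 CPM in WT and 202 and 320 CPM in DTR (log2 0.71 ± 0.23, adjusted p = 0.0858). In all, 8 of the 36 had an unadjusted p under 0.05, where 20.7% of all genes did. Of the other pathway genes, Dlat and Pdp2, a phosphatase that activates pyruvate dehydrogenase, were lower in DTR (log2 -0.86 and -2.21, adjusted p = 0.043 and 0.00829).

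The effect of the cytokine itself was measured at day 7 in another set of mice. Of the 36 genes 11 rose and 7 fell against PBS, where 34.1% of the 12896 genes tested changed, 18.1% up and 16.1% down. The median log2 change was 0.03 over the 36 and 0.05 over all genes. Library size alone gave 12 rises and 4 falls, and the offset for transcript length and GC content 8 and 2.

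The lactate exporter had the largest rise of the 11. Slc16a3 read 27.6 and 75.4 CPM with PBS and 424 and 363 CPM with rIL-17A, and rose 6.85-fold (log2 2.78 ± 0.38, edgeR adjusted p = 0.000279). Gapdh, the glyceraldehyde phosphate dehydrogenase often used as a reference gene, read 1046 and 1196 CPM and then 4467 and 3448 CPM, and rose 3.20-fold (adjusted p = 0.000354). Gys1 read 154 and 244 CPM and then 596 and 554 CPM, and rose 2.59-fold (adjusted p = 0.00151). No PBS library reached a rIL-17A library in any of the 3, and these 3 calls stood in every alternative tried.

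Regulators were among the other genes that rose. Pdk2 read 105 and 246 CPM with PBS and 580 and 458 CPM with rIL-17A, and rose 2.65-fold (edgeR adjusted p = 0.007). Its call was lost with DESeq2, without rIL-17A replicate 1 and without rIL-17A replicate 3. Pfkfb3 read 6.03 and 12.2 CPM and then 35.9 and 27.5 CPM, and rose 3.16-fold (adjusted p = 0.00625). Hk1 rose 3.15-fold, Phka1 2.33-fold and Pdk1 2.02-fold, and Slc2a4, Pfkfb4 and Gpi1 (the isomerase of glucose phosphate) rose by 0.91 ± 0.29, 0.82 ± 0.26 and 0.65 ± 0.22 on the log2 scale. Without rIL-17A replicate 1 the calls of Hk1, Pfkfb3, Pfkfb4, Pdk1, Slc2a4 and Gpi1 were lost.

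The 7 genes that fell include enzymes of lower glycolysis and both lactate dehydrogenases. Pgam2 read 5114 and 6428 CPM with PBS and 3934 and 2439 CPM with rIL-17A, and fell by 0.99 ± 0.28 (edgeR adjusted p = 0.0151). Ldha read 7409 and 10206 CPM and then 6001 and 5146 CPM, and fell by 0.81 ± 0.25 (adjusted p = 0.0239). Ldhb, the heart form, Fbp2, Eno3 and Eno1 fell by 1.02, 0.97, 0.64 and 0.54. With the offset for length and GC content, Eno1 alone of the 7 kept its call. Among the rises, Slc2a4, Hk1, Gpi1 and Pfkfb4 lost theirs under it. Eno3 and Eno1 also lost their calls with DESeq2's size factors and with the replicate block. The calls of Pgam2, Ldha, Ldhb, Fbp2, Eno3 and Eno1 were all lost without rIL-17A replicate 3. Aldoc, at 1.88 and 1.86 CPM and then 0.311 and 0 CPM, passed at an adjusted p of 0.0498 and lost its call in 10 of 12 alternatives. Of the other pathway genes 37 were tested, and 10 rose and 8 fell. Among those with the smallest p were Dlat (log2 1.77), the glycogen-binding protein Stbd1 (1.49) and Pdhb (-1.17).

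The 2 rIL-17A libraries weighed heavily. The count of genes was 8 without rIL-17A replicate 1 and 7 without rIL-17A replicate 3. It was 10 with the length and GC offset and 11 in 1 fit with all whole-muscle libraries. Across the 36 genes the log2 change ran with transcript length (Spearman 0.62, against 0.34 over 12725 genes), and the part of fragment length or RNA quality in it was not tested. The 10 macrophage markers summed to 1938 and 2462 CPM with PBS and 727 and 885 CPM with rIL-17A. The 7 oxidative fibre markers summed to 1188 and 758 CPM with PBS and 367 and 443 CPM with rIL-17A, and the 15 fibre markers to 206329 to 221983 CPM and 205533 to 229254 CPM. The 5 endothelial markers summed to 172 and 152 CPM with PBS and 308 and 292 CPM with rIL-17A (3 of 5 rose), and the 6 epithelial markers to 337 and 190 CPM and then 57.3 and 67.7 CPM (both of those tested fell). The part of these cell types in the changes was not tested.

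**Figure D4:**
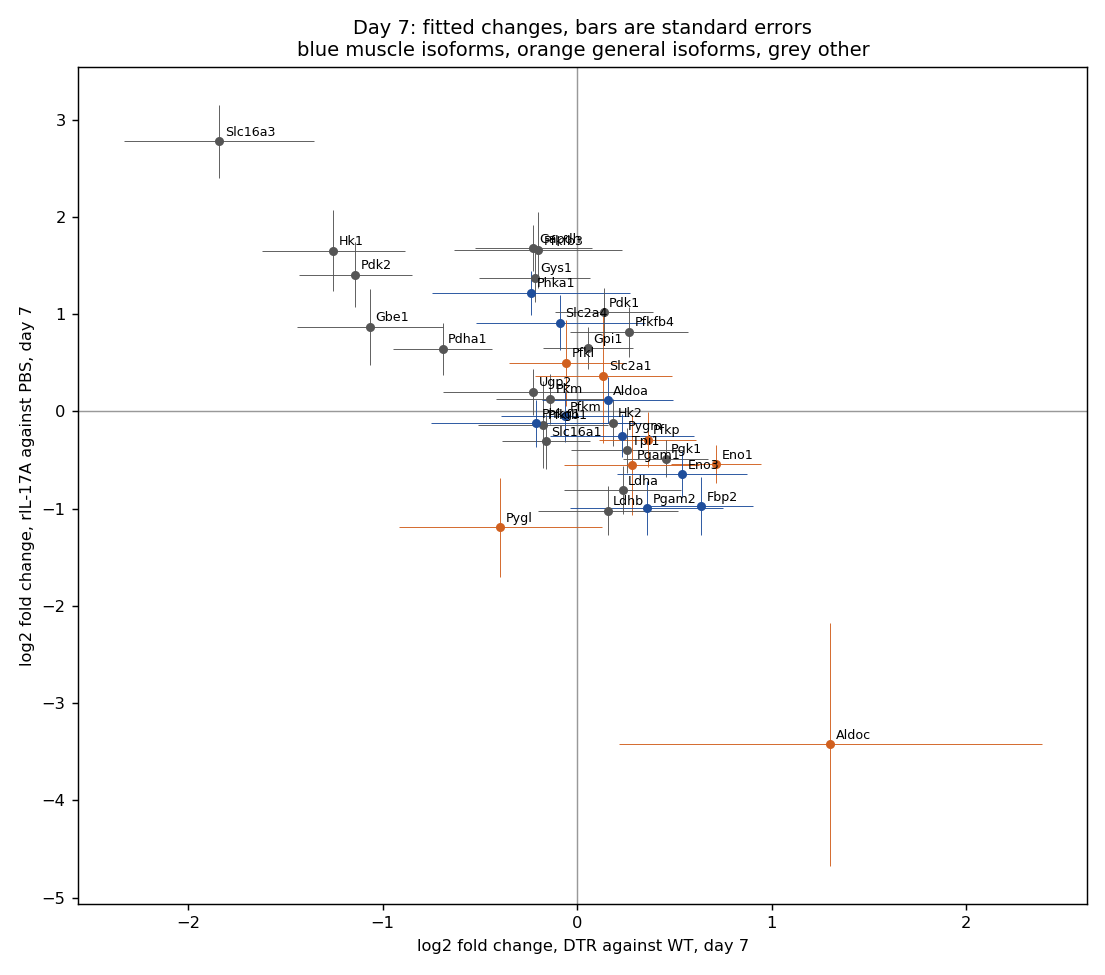
Log2 fold change of each gene at day 7 for DTR against WT (x axis) and rIL-17A against PBS (y axis); bars are standard errors, blue marks muscle isoforms and orange general isoforms. Slc16a3 lies at -1.84 and 2.78, and Pdk2 at -1.14 and 1.41.

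The 2 comparisons at day 7 share no libraries. Across the 36 genes their log2 changes had a Spearman correlation of -0.69, and 26 were opposite in sign. Across all 12840 genes tested in both it was -0.52, with 69.3% opposite in sign, so the direction is not particular to these genes, and with the offset for length and GC it was -0.63 over the 36. The PBS libraries came from wild-type mice, yet their Slc16a3 levels (27.6 and 75.4 CPM) lay with those of DTR muscle (83.1 and 33.1 CPM) and below those of WT muscle (198, 215 and 359 CPM) of the other set. The same held for Pdk2, at 105 and 246 CPM with PBS, 190 and 141 CPM in DTR and 381, 384 and 548 CPM in WT. The sets also differed in genes detected, 18162 and 16951 with PBS, 22369 and 21496 in DTR and 22417, 27437 and 34392 in WT. Olfactory and vomeronasal receptor genes summed to 12.1 and 14.6 CPM with PBS, 146 and 92.1 CPM in DTR and 267, 543 and 1383 CPM in WT. The labels do not say whether the sets were handled together, and no test between them was made.

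**Figure D5:**
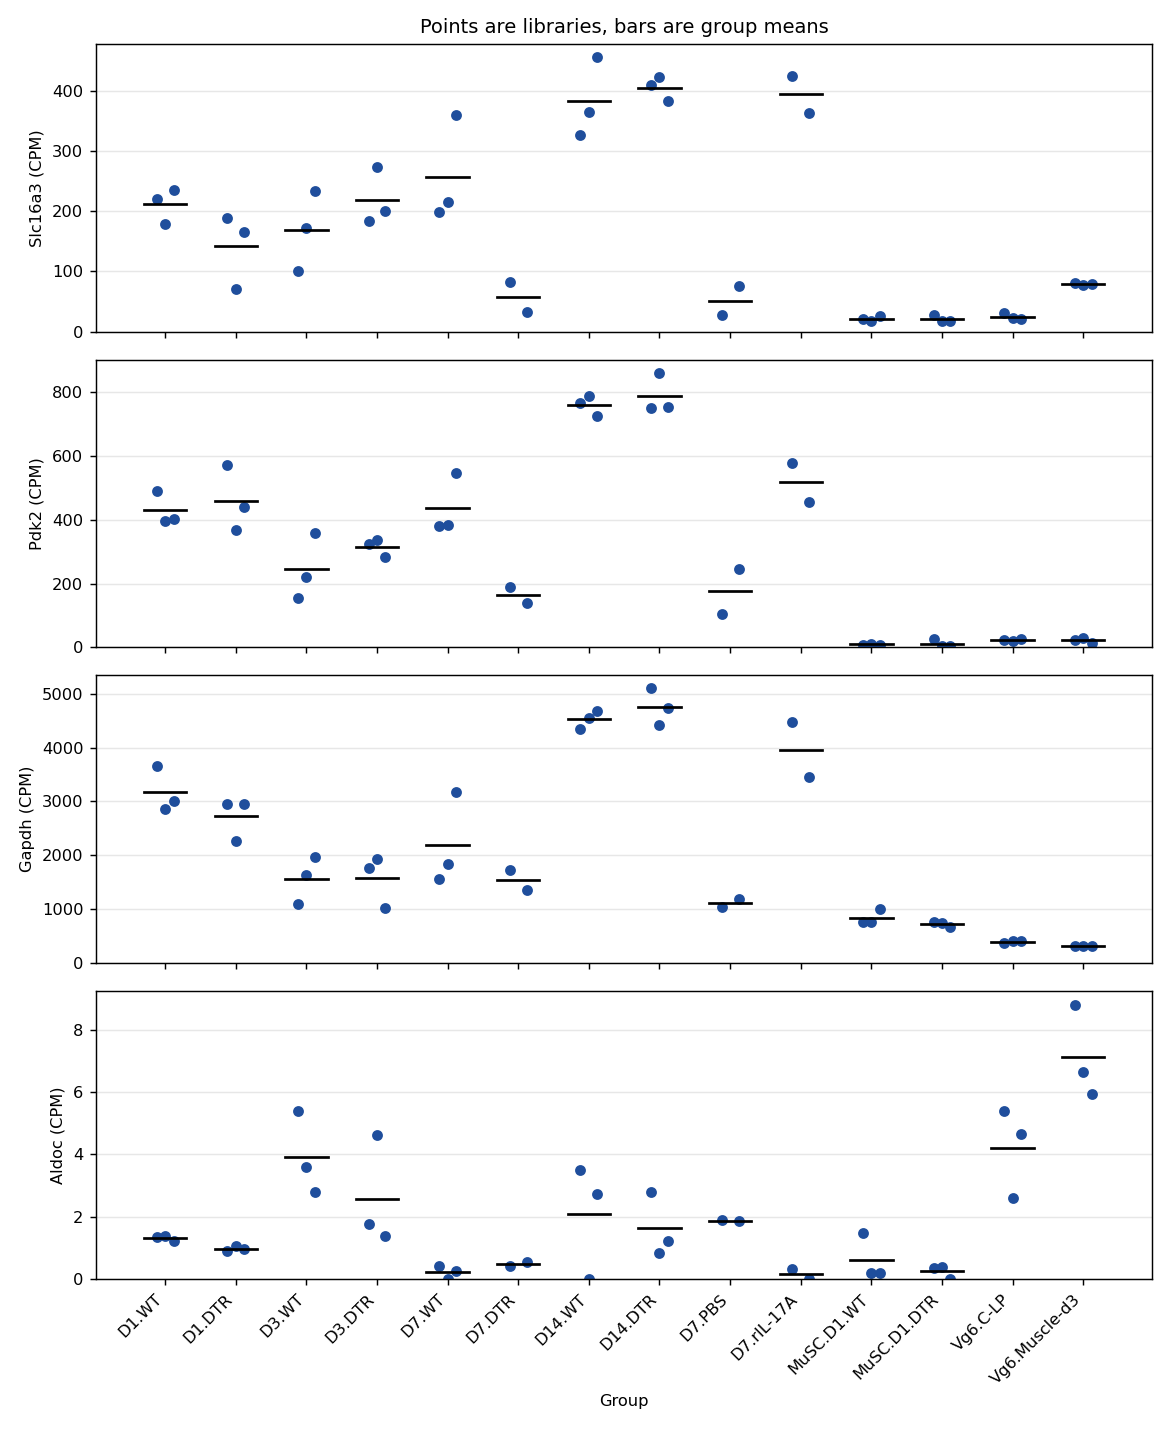
CPM of Slc16a3, Pdk2, Gapdh and Aldoc in every library of the 14 groups; points are libraries and short bars group means. Slc16a3 stands at 33.1 and 83.1 CPM in DTR muscle at day 7, 27.6 and 75.4 CPM with PBS, and 363 and 424 CPM with rIL-17A.

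In satellite cells at day 1 none of the 31 genes tested differed between DTR and WT, where 0% of all genes did, DESeq2 called none of them, and 1 (Pfkfb3, lower in DTR) had an unadjusted p under 0.05, where 5.95% of all genes had one. Slc2a4, Aldoc, Pgam2, Pygl and Fbp2 were too low to test. The median log2 difference was -0.04 over the 31 and 0.02 over all genes. Pfkfb3 read 35.1, 29.1 and 35.3 CPM in WT and 28.6, 24.1 and 19.6 CPM in DTR (log2 -0.47 ± 0.20, edgeR adjusted p = 0.818). Ldha at 2210, 2187 and 2631 CPM in WT and Aldoa at 1420, 1313 and 1717 CPM were the most abundant of the glycolytic enzymes beside Pkm. The lactate importer and exporter Slc16a1 (MCT1) stood at 169, 203 and 114 CPM in WT, above Slc16a3 at 21.9, 17.2 and 25.5 CPM.

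In Vg6 cells 6 of the 32 genes tested differed between tissues (18.8%), against 24.5% of all 11907 genes. Of these, 2 were higher and 4 lower in muscle, where 12.3% of all genes were higher and 12.2% lower. Slc2a4, Pgam2, Phkg1 and Fbp2 were too low to test. The median log2 difference was -0.15 over the 32 and -0.01 over all genes. Slc16a3 read 31.5, 22.5 and 21.6 CPM in colon and 80.0, 76.8 and 78.4 CPM in muscle, with no overlap, and was 3.07-fold higher in muscle (log2 1.62 ± 0.17, edgeR adjusted p = 5.951e-06). Gapdh read 375, 415 and 409 CPM in colon and 313, 315 and 323 CPM in muscle, and was 1.29-fold lower (adjusted p = 0.00324). Both calls stood in every alternative tried.

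The other 4 were less steady. Pgam1 read 20.8, 21.6 and 25.3 CPM in colon and 31.1, 39.1 and 33.3 CPM in muscle, and was higher by 0.58 ± 0.19 on the log2 scale (edgeR adjusted p = 0.0396). Hk2, Eno1 and Gbe1 were 1.45, 1.22 and 1.67-fold lower (adjusted p = 0.0392, 0.0295 and 0.0328). The count was 3 without colon replicate 1, 3 without muscle replicate 2 and 2 without muscle replicate 3, of which Slc16a3 and Gapdh were part in each case.

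Of the other pathway genes, 10 of 28 tested passed in Vg6 cells, 9 of them higher in muscle. Those with the smallest p were Bpgm, which makes bisphosphoglycerate (log2 1.59), Txnip, which limits glucose uptake (0.78), the mitochondrial glycerol phosphate dehydrogenase Gpd2 (0.78) and Adpgk, the ADP-dependent glucokinase (1.01).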

How the data were processed

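Each library came with raw counts per gene symbol, which the authors deposited as whole numbers. The submitters' processing notes name STAR 2.7.3a, featureCounts, Subread 2.0.0 and mm10, without saying which step each served. Library kit, gene annotation, strandedness and the treatment of multi-matching reads: not given in the sources used here. For near-identical or overlapping genes the split of reads is therefore unknown. Groups came from the labels, and every column matched 1 library. The members and lists were chosen with earlier results of these data known.

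All genes passing filterByExpr by group (minimum count 10, minimum total 15) were tested in edgeR 4.0.16 (R 4.3.3) by the quasi-likelihood F-test with TMM scaling and a robust fit, and called at a Benjamini-Hochberg adjusted p under 0.05. The Vg6, rIL-17A and satellite cell comparisons were fitted alone and the time course in 1 fit over 23 libraries. The tests were also run on simulated counts, drawn for independent libraries at the fitted spread. Such counts do not address libraries that stand apart or the choice of scaling. CPM used the column totals. Isoform shares divided counts by the length of the longest GENCODE transcript, and shared sequence was counted over windows of 50 bases. Replicates of a group differed by at least 3.43 in chi-square per degree of freedom, so none were copies.

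Alternatives were DESeq2's size factors, library size alone, no filter, DESeq2 1.42.0, the replicate number as a block, each library left out, fits on 1 day or on all 27 whole-muscle libraries and shares without length. Added once results had been seen: a length and GC offset, leaving out 3 libraries, crossed pairing and lengths without shared windows. All 36 genes may be named, with the 4 other pathway genes of smallest p in a comparison, and Ckm, Myh4, Hif1a, Bnip3 and Vegfa as single genes. A result that the rule would name is not reported here.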

Additional observations from a re-analysis of the deposited data

How the results depend on the processing

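The counts of genes past the test at days 1, 3 and 14 (DTR against WT) and in satellite cells were 0 under every alternative, and leaving out libraries in turn left these at 0. With 1 library left out in turn, the count ran from 2 to 4 in Vg6 cells, 0 to 2 at day 7, 7 to 16 with rIL-17A, 34 to 35 over time in WT and 32 to 34 in DTR, 17 to 24, 31 to 35 and 1 to 8 over the 3 steps in WT, 8 to 24, 17 to 26 and 7 to 13 in DTR, and 0 to 1 for the interaction. At day 7 DTR against WT gave 2 with DESeq2's size factors, 5 with library size alone, 3 with no filter, 5 with DESeq2, 2 with the length and GC offset, 2 without the 3 libraries and 0 with all 27 libraries. The interaction gave 2 with library size alone, 1 with no filter and 1 with DESeq2. rIL-17A gave 10 with the offset and 11 with all 27 libraries. WT day 7 to 14 gave 8 with the offset and 11 without the 3 libraries, and DTR day 1 to 3 gave 27 without them. The cause was not tested.

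A check did not settle whether the replicate numbers pair the libraries. It covered 7 comparisons between groups (Vg6, rIL-17A, satellite cells and DTR against WT at 4 days). In each, at least 1 same-numbered pair correlated at 0.1 or less, which paired libraries could also show. Same-numbered pairs reached 0.39 for replicate 2 at day 1 and 0.17 for replicate 2 at day 7. Where a group has 2 libraries the values mirror each other, so they cannot decide. The steps between days and the interaction were not checked for pairing. With the replicate block the day 7 count was 2 in place of 1, the rIL-17A count was 15 in place of 18, and no other count moved by over 1.5 times. Crossing the pairing of the rIL-17A and PBS libraries, which correlated at -0.17 by number, gave 21.

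Under library size alone the log2 change turned sign for Hk2 from day 3 to 7 in WT (-0.0019) and, in DTR, for Hk2 (-0.29), Gapdh (-0.030), Slc16a1 (-0.082), Pdha1 (-0.18) and Pdk1 (-0.056). With the offset it turned for Pgk1 from day 7 to 14 in DTR (0.066). The rise of the Eno3 share from day 3 to 14 in WT was 33.5 points with all counts divided by unshared length. That of Pgam2 and Pfkm was 5.23 and 10.6 points without length. Leaving out libraries in turn these rises ran from 8.47 to 18.2 (Eno3), 1.16 to 3.47 (Pgam2), 3.92 to 7.25 (Pfkm), 1.70 to 6.95 (Pygm) and 9.68 to 13.7 (Slc2a4) points. Of 1797 single-gene values under alternatives, 1534 kept their call, 256 lost it and 7 changed sign. Groups of 2 and 3 libraries limit what can be called.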

Other observations

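Genes of the response to low oxygen, a list of 15 that includes activators and targets shared with glycolysis, were measured beside the 36. Hif1a, which encodes an oxygen-regulated activator of many glycolytic genes, averaged 150 CPM in muscle Vg6 cells and 75.3 CPM in colon Vg6 cells (log2 0.97 ± 0.15, edgeR adjusted p = 0.000252), and 3 of the 12 genes tested were higher in muscle and 1 lower, where 12.3% and 12.2% of all genes were. In WT muscle from day 3 to day 7, 5 of the 15 rose and 3 fell, where 17.9% and 19.0% of all genes did. Hif1a averaged 98.3 CPM and then 17.6 CPM and fell by 1.71 ± 0.24 (edgeR adjusted p = 2.84e-07). Bnip3, a mitophagy receptor, averaged 36.3 CPM and then 101 CPM and rose 4.86-fold in the TMM-scaled fit (edgeR adjusted p = 7.33e-05). Vegfa, a growth factor of vessels, averaged 1.30 CPM and then 3.51 CPM and rose 4.71-fold in that fit (edgeR adjusted p = 0.0111).

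With rIL-17A, 1 of the 14 genes tested rose and 4 fell, where 18.1% and 16.1% of all genes did. Hif1a averaged 20.7 CPM with PBS and 43.1 CPM with rIL-17A and rose by 0.90 ± 0.29 (edgeR adjusted p = 0.0291), and Bnip3 averaged 109 CPM and then 66.2 CPM and fell by 0.87 ± 0.22 (edgeR adjusted p = 0.00976). None of the 15 passed between DTR and WT at days 1, 3, 7 or 14 in edgeR, where 4 had an unadjusted p under 0.05 at day 7 and 4 at day 14, against 20.7% and 5.72% of all genes.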
